A study of Mus musculus with 4 samples.

Results

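The regions described here are the weak H3K23pr peaks that were called in both genotypes of a mouse liver experiment. H3K23pr is a propionyl mark on a lysine in the tail of histone H3. The members were chosen by 2 measured values, the overlap of the peaks and their fragment number. Each member was a pair, that is, 1 peak of the control liver and 1 peak of the knockout liver that overlapped by at least 1 bp on chromosomes 1 to 19. Pairs in which both peaks had 11 or more immunoprecipitated (IP) fragments at the summit were left out. This gave 406 pairs out of 468 overlapping pairs in all. Of those left out, 45 had 11 or more fragments in both genotypes and 17 lay on the X and Y chromosomes. The 406 pairs held 403 control peaks and 405 knockout peaks and made 402 separate sites, because 4 sites held 2 pairs that shared a peak.

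The samples were livers of male C57BL/6 mice, with age, diet, Cre driver and the number of animals behind a library not given in the sources used here. The control was RPN11 flox/flox (called WT after its title), and the knockout (KO) is labelled as deleted for RPN11 in hepatocytes, which leaves the gene in other liver cells. Each genotype had 1 IP and 1 input library. After duplicate filtering the WT IP held 13615838 fragments with a reported fragment size of 97 bp, and the KO IP held 15468265 with a size of 71 bp. Every difference between WT and KO below is a difference between these libraries and has no replicate check. Intervals are exact 95% binomial or Poisson intervals and cover counting error only.

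Histone lysine propionylation is an acyl mark built from propionyl-CoA, which arises from the breakdown of valine, isoleucine and odd-chain fatty acids. It is laid down by acetyltransferases that also use acetyl-CoA, and in liver it has been linked to active chromatin. The gene Psmd14 encodes RPN11, the proteasome subunit that removes ubiquitin chains from substrates, and the series title places it in fatty liver disease. A peak with 4 to 6 fragments sits at the lower limit of what the caller could report, so the location, spacing and summit positions of these sites were read against all peaks of the same lists.

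A single pair touched a promoter window of RefSeq, which reaches from 250 bp before to 50 bp after a start site. This was 1 of 394 pairs (0.254%, 0.00643 to 1.41) on the chromosomes that the promoter table covers, against 0.322% of WT peaks and 0.198% of KO peaks. The window belongs to Junos, a noncoding gene that begins beside Jun on chromosome 4 (95052317 to 95169036) and has 7 start windows in the table. The shared stretch of 29 bp lay at the start window farthest from Jun, 95143 bp from the nearest protein-coding gene end, which is that of Jun. WT had 5 and KO 7 fragments there, with summits 182 bp apart. The shared bases lay upstream of the start site itself, which neither peak covered. The window is printed because it is the only one that both peaks touched (RefSeq, GRCm38.p6, plus strand, chr4:95147236-95147535), with the bases under both peaks in capitals.
Junos: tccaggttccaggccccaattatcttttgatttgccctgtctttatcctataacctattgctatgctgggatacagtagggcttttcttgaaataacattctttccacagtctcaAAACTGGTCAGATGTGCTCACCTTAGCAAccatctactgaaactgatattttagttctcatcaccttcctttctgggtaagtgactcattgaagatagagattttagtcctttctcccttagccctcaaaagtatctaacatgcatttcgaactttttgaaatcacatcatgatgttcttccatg
The window had a GC content of 39% and 1 CpG. Over 31396 windows the medians were 53% and 7, and the GC content stood at percentile 8.4.

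Psmd14, the gene targeted in the knockout, held 1 pair among its 7 WT and 10 KO peaks. The 2 peaks overlapped over 50 bp on chromosome 2 (61715585 to 61715634), 3915 bp inside the gene, with summits 47 bp apart. Both had 6 fragments, at folds of 4.14 in WT and 4.46 in KO (fragments over the local background, with 1 added to both). Which exons are floxed is not given in the sources used here, and a peak does not check the deletion. In the list of 41 proteasome genes it was the only gene with a pair, among 9 with peaks of both genotypes. Over all protein-coding genes 0.905% held a pair, and of those with peaks of both genotypes 4.05%.

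Shared peaks were a small part of each list. On these chromosomes 0.837% of WT peaks touched a peak of KO liver. The share of KO peaks that touched a WT peak was 1.08%. These shares were counted over 53395 WT and 41122 KO peaks and include the pairs with 11 or more fragments in both. Since the members were selected on overlap and fragment number, the values in this and the next paragraph are descriptions. The median pair had 5 fragments in WT and 5 in KO. WT summits ranged from 4 to 18 fragments and KO summits from 4 to 22. In 267 of the 406 pairs (65.8%, 60.9 to 70.4) both summits held 4 to 6 fragments, and in 45 pairs both held 4, the lowest value in either list. Only 18 pairs had 8 or more in both. The WT side of the pairs had 7 fragments in 8.62% and 8 or more in 12.6%, against 7.65% and 4.3% of all WT peaks. The KO side had 7 in 11.6% and 8 or more in 10.8%, against 6.16% and 3.45% of all KO peaks.

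WT and KO summits held like numbers of fragments, but so did the 2 whole lists. Over all WT peaks and over all KO peaks the median was 5 fragments, with quartiles of 4 and 6. Like counts in a pair therefore do not show agreement between the genotypes at these sites. KO was higher in 156 pairs, WT in 145, and 105 pairs were equal. The numbers differed by at most 2 fragments in 330 pairs (81.3%). Scaled to library size, the median KO to WT ratio was 0.88 (quartiles 0.704 and 1.1), which is also the ratio that equal counts give. At 5 fragments in both, the 95% interval of the scaled ratio ran from 0.203 to 3.825, so changes of several fold at a single site were not detectable at this depth. With no adjustment for the 406 intervals looked at, the interval lay below 1 in 3 pairs and above 1 in 0. Of these 3, 2 shared a WT peak of 17 fragments near A530032D15Rik on chromosome 1, and the third was in Spata1 with 14 WT and 5 KO fragments. The WT and KO summits of the 3 pairs were 193, 180 and 216 bp apart, so each ratio compares counts at different bases. The local background at these WT peaks was 4.35 and 2.53 fragments, against 0.692 at most WT sites. The part of background and of the shorter KO fragments in these ratios was not tested.

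**Figure D1:**
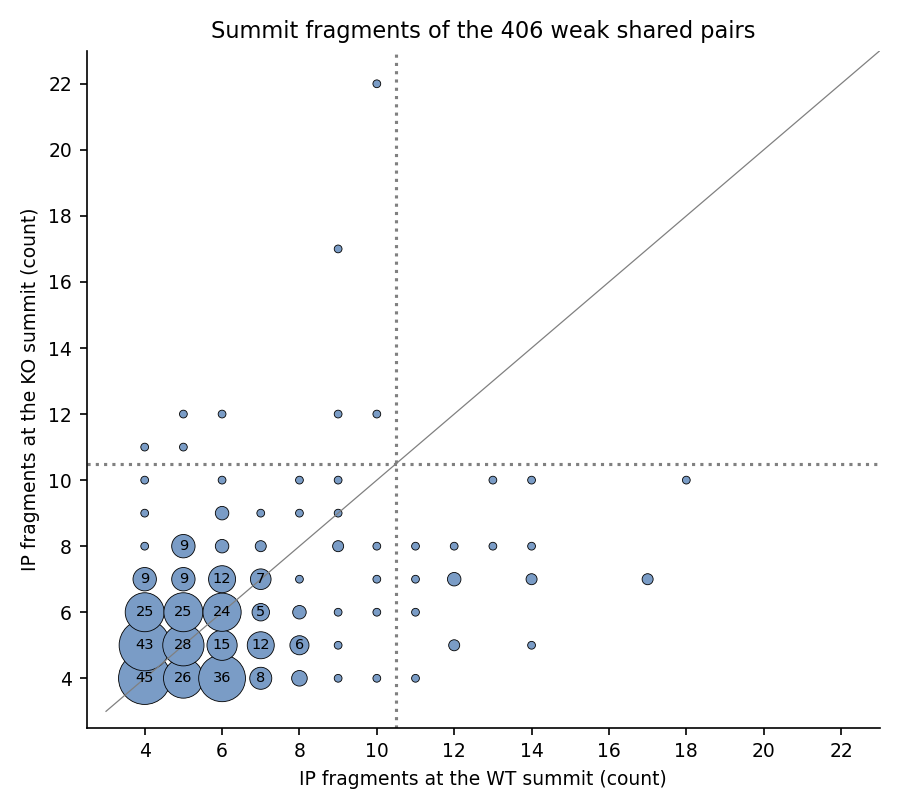
Each circle marks a combination of IP fragments at the WT summit (horizontal axis) and at the KO summit (vertical axis), with its area set by the number of pairs and the number written in where it is 5 or more. Dotted lines mark the threshold of 11 fragments and the grey line marks equal counts; the 45 pairs at 4 and 4 form the largest circle, and 20 pairs lie to the right of the WT threshold against 8 above the KO threshold.

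The local background, which the caller estimates around each peak, was low at most sites. In 344 pairs (84.7%) it was at most 2 times the lowest common level in both lists, which was 0.692 fragments in WT and 0.568 in KO. A background above 2 times that level was found on the WT side in 12.3% of pairs and on the KO side in 4.19%, against 4.26% of all WT peaks and 1.09% of all KO peaks. It moved with the higher counts, which the calling itself requires in part. A peak over a higher background needs more fragments to pass the caller's p cutoff of 0.001. Fragment number also chose the members, so the counts that follow are descriptions. Of the 20 pairs with 11 or more WT fragments, 16 had a raised WT background, and of the 8 pairs with 11 or more KO fragments, 5 had a raised KO background. By the caller's q column (−log10 q of 1.3 or more), 30 pairs passed in both genotypes and 220 passed in neither. The share that passed was 16.0% on the WT side and 37.2% on the KO side, against 9.61% and 27.4% of all peaks. The q value depends on fragment number and background, so these shares are not separate from the fragment numbers given above.

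Summits of a pair lay a median of 63 bp apart (95% interval of the median 57 to 68), with quartiles of 29.25 and 115 bp and a range of 0 to 611 bp. The overlap itself had a median length of 71 bp. In 33 pairs it was 10 bp or less, and in 267 it covered at least 50% of the shorter peak. Each summit lay inside the other peak in 148 pairs (36.5%, 31.8 to 41.3). In 3 pairs the summits fell on the same base. These were near Prl2c3, a gene of the prolactin family (11 WT and 7 KO fragments, 54151 bp from the nearest gene end), inside Dlgap2, which encodes a synaptic scaffold protein (6 and 8), and inside Fam78b (5 and 6). Summits 1 to 3 bp apart were found in Rabgap1l, Noa1, Zfp800 and A2m and near Col6a4, Pax4 and Tigd2. A2m encodes the protease inhibitor alpha-2-macroglobulin, and its site held 9 WT and 5 KO fragments with a WT background of 2.18. The site near Col6a4, a collagen gene, had 5 WT and 12 KO fragments with a KO background of 3.09. At the other 5 sites WT had 5 or 6 fragments and KO 4 to 6.

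The overlap rule limits how far apart the summits of a pair can be. The distance was therefore counted over all peaks, with every WT summit set against every KO summit within 10 kb, whether or not the peaks overlapped, and without combinations of 11 or more fragments in both. At distances of 0 to 99 bp there were 326 combinations (95% interval 292 to 363), of which 292 were pairs of the set described here. At 1 to 10 kb there were 226 per 100 bp of distance (223 to 229). The rate at 0 to 99 bp was thus 1.44 times that at 1 to 10 kb (1.29 to 1.61). It did not peak at the smallest distances, with 332 per 100 bp at 0 to 24 bp (264 to 412) and 308 at 75 to 99 bp (243 to 385). By 100 to 149 bp it was 214 (175 to 259). WT and KO summits thus lay within 100 bp of each other more often per bp than at 1 to 10 kb, with the excess spread over the whole 100 bp.

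The ratio of the near to the far rate was larger for higher summits. Where both summits held exactly 4 fragments it was 1.4 (1.02 to 1.88, 45 combinations under 100 bp). With 5 or more in both it was 1.66 (1.41 to 1.95), with 6 or more 2.1 (1.6 to 2.7) and with 7 or more 4.44 (2.79 to 6.75, 23 combinations). The last 3 groups are nested, and the differences between groups were not tested. With both peaks at a background of at most 2 times the lowest, the ratio was 1.36 for all peaks (1.21 to 1.53). There it was 1.77 at 6 or more fragments (1.27 to 2.41) and 3.1 at 7 or more (1.4 to 5.98, 9 combinations). The median distance between the summits of a pair was not smaller where the counts were higher. The overlap rule ties this distance to peak width, which was not taken into account. It therefore cannot show whether the summits agreed better at higher counts. The median distance was 62 bp where the smaller count was 4 or 5 (interval 55 to 67, 313 pairs), 75 bp where it was 6 (51 to 93, 55 pairs) and 69.5 bp where it was 7 or more (49 to 135, 38 pairs).

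**Figure D2:**
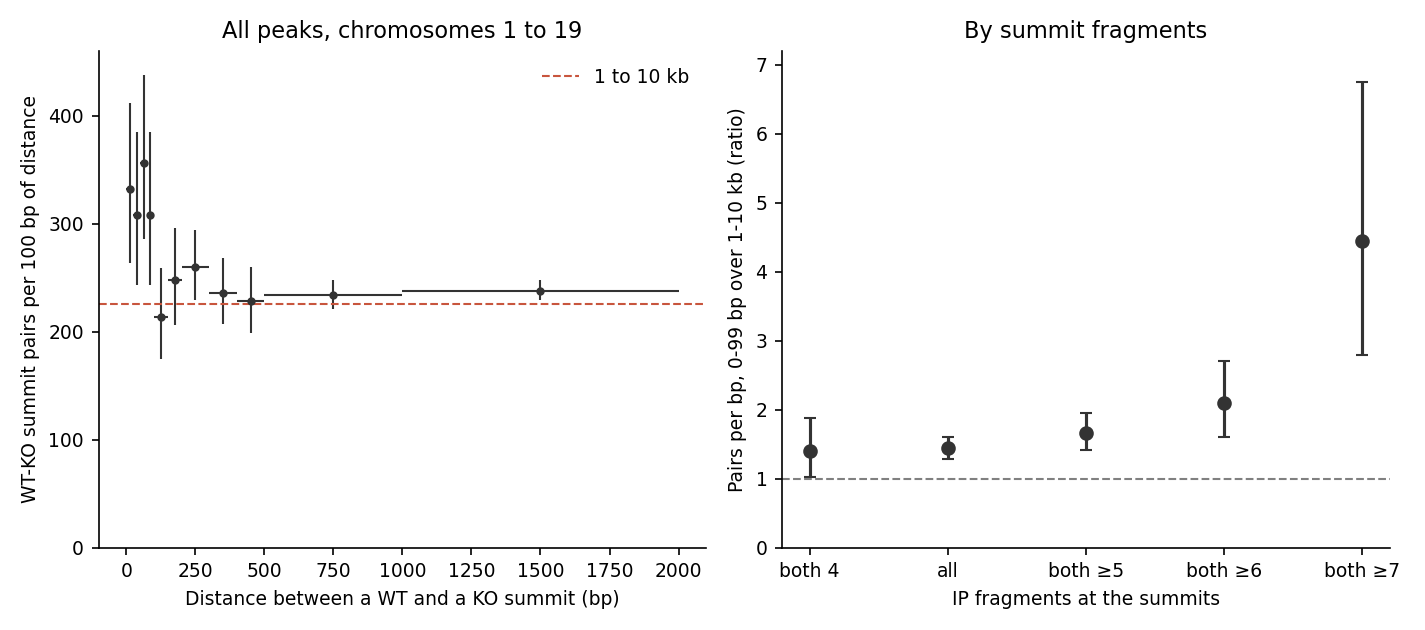
Left, number of WT and KO summit combinations per 100 bp of distance against the distance in bp (horizontal bars, bin width; vertical bars, 95% Poisson intervals; dashed line, 226 per 100 bp at 1 to 10 kb). Right, the rate at 0 to 99 bp over the rate at 1 to 10 kb by IP fragments at both summits, with exact 95% intervals; the ratio is 1.4 for summits of exactly 4 and 4.44 for 7 or more.

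Weak shared sites had shares at gene ends and inside genes close to those of all peaks, and a lower share far from any gene. No test of these differences was run. The midpoint of the overlap lay within 2 kb of an end of a protein-coding gene in 15 pairs (3.69%, 2.08 to 6.02), against 5.45% of all WT peaks and 4.1% of all KO peaks. Inside a gene and further from its ends were 178 pairs (43.8%, 39 to 48.8), against 41.1% of WT and 42% of KO peaks. The other 213 (52.5%) were outside genes. For gene ends and gene interiors the shares of both lists lay within the interval of the pairs. The median distance to the nearest gene end was 31092.5 bp, against 41840 bp for WT and 49318 bp for KO peaks. Only 14 pairs (3.45%, 1.9 to 5.72) were over 500 kb from any gene end, against 7.26% of WT and 8.14% of KO peaks, both above the interval of the pairs. The genes around interior sites had a median length of 135277 bp, against 148313 bp for WT and 161469 bp for KO peaks. Of the 178 interior pairs, 21 (11.8%, 7.45 to 17.5) lay in a gene of 500 kb or more, against 17.3% of interior WT peaks, inside that interval, and 19.9% of interior KO peaks, above it. Sites over long noncoding RNA genes made 7.64% of pairs, against 8.91% and 8.72%. Exons and introns were not used here.

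**Figure D3:**
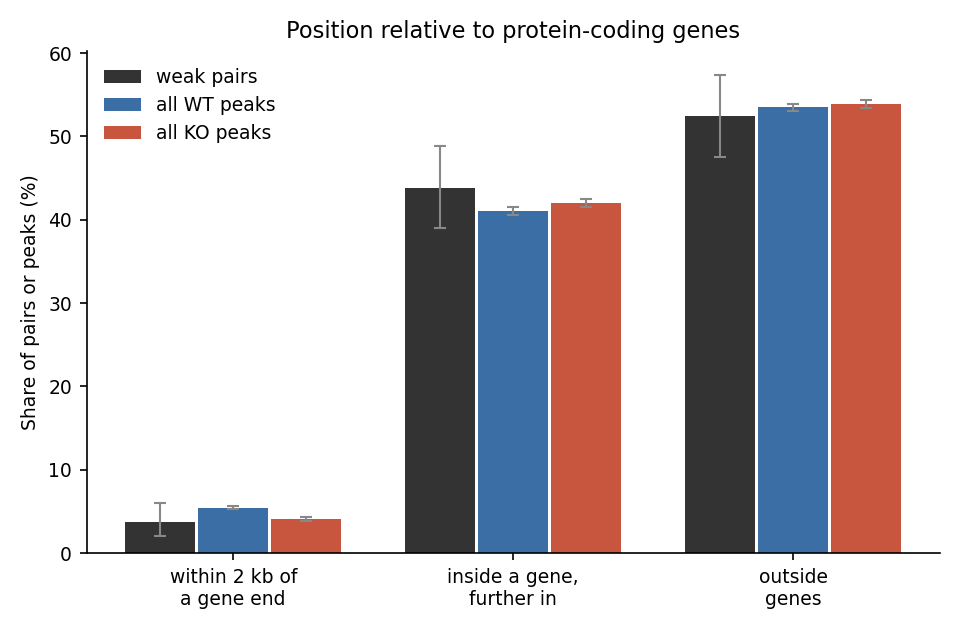
Bars give the percentage of the 406 pairs (black), of all WT peaks (blue) and of all KO peaks (red) by position relative to protein-coding genes, with exact 95% intervals. The bars are of like height in each place, with 3.69% of pairs, 5.45% of WT and 4.1% of KO peaks within 2 kb of a gene end.

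The 15 pairs at gene ends lay within 2 kb of an end of 17 genes. The site was at the 3′ end in 9 and at the 5′ end in 5, and for 3 the strand was not used. Genes with the site at the 5′ end were Rdh14, a retinol dehydrogenase gene, Prl2c5 of the prolactin family, Brd3, Chrna9 and Sdad1. Brd3 encodes a bromodomain protein that binds acetylated histones. Its site on chromosome 2 (27506606 to 27506711) was 999 bp inside the gene, with 5 WT and 6 KO fragments, folds of 3.32 and 3.43 over background, and summits 12 bp apart. Rdh14 shared its site with the end of its neighbour Nt5c1b, a nucleotidase gene, on chromosome 12 (10391782 to 10391887). It held 6 WT and 7 KO fragments, with folds of 4.14 and 5.10 and summits 16 bp apart. Chrna9, a nicotinic receptor subunit gene, had 4 and 5 fragments 1025 bp outside the gene.

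Of the sites at 3′ ends, that of Hykk, the hydroxylysine kinase gene, had 7 fragments in both genotypes and summits 227 bp apart. Plscr1, a phospholipid scramblase gene, had 7 in WT and 6 in KO at 744 bp past its end. Its summits were 300 bp apart. Pigl, an enzyme gene of GPI anchor synthesis, had 7 in WT and 5 in KO. Srr, the serine racemase gene, had 5 in WT and 8 in KO, and the same site lies inside Tsr1. Afp, which encodes the fetal liver plasma protein alpha-fetoprotein, had 4 in both at 470 bp past its end (chromosome 5, 90509365 to 90509389). Inhba, the gene for a subunit of activin, had 5 in both. Ldb3 of the muscle Z-disc had 6 and 4, and Zdhhc20, a palmitoyltransferase gene, had 4 in both. For Cox17 and Arf6 it was not settled which end the site was at. Cox17, a gene for a copper chaperone of cytochrome c oxidase, had 4 in WT and 7 in KO. Arf6, a small GTPase gene, had 6 and 7. Over the 15 sites WT ranged from 4 to 7 fragments and KO from 4 to 8, and the largest difference at a site was 3.

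**Figure D4:**
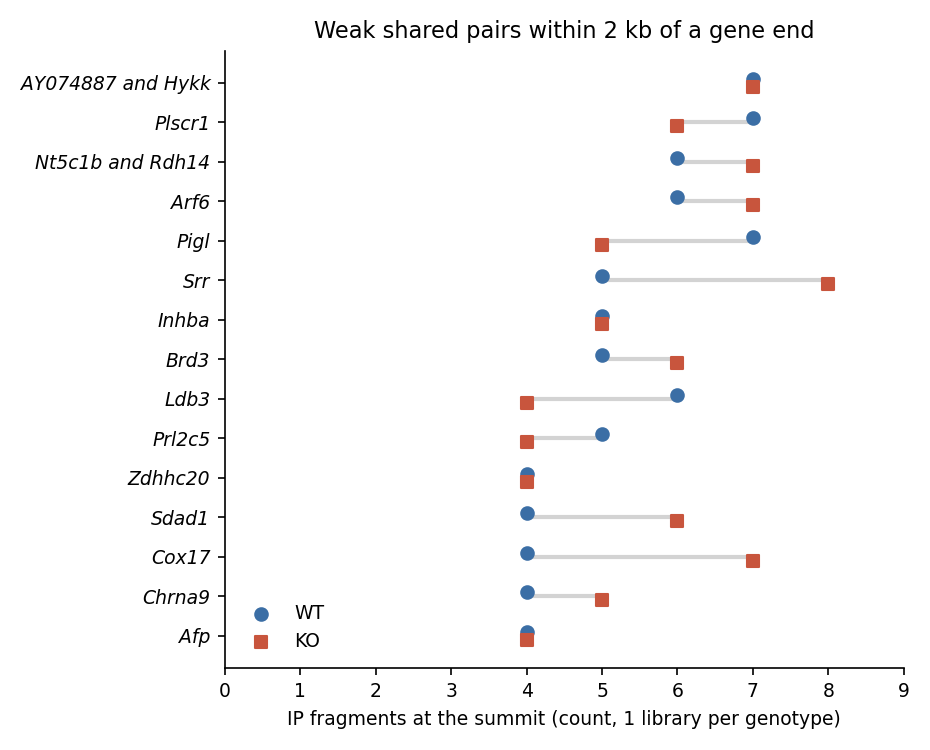
IP fragments at the WT summit (blue circles) and the KO summit (red squares) of the 15 pairs within 2 kb of a protein-coding gene end, labelled by gene, with 1 library per genotype and no error bars. All values lie between 4 and 8, and no gene differs by more than 3 fragments.

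A pair lay inside or within 2 kb of 187 protein-coding genes, 0.905% of 20665. These genes were long and held several peaks. Their median length was 104335 bp, against 80839 bp for the 4618 genes with a WT and a KO peak and 17491 bp for all genes. Their medians were 5 WT and 4 KO peaks, against 3 and 2 in the 4618. These counts include the peaks of the pair itself. A longer gene with more peaks also has more places for an overlap, so both contrasts follow in part from how the genes were chosen. Of the 4618 genes with peaks of both genotypes, 4.05% had a pair. Among families grouped by symbol, none of 1104 olfactory receptor, 354 vomeronasal receptor or 101 cytochrome P450 genes held a pair. Of these genes 109, 44 and 44 had a WT peak and 92, 43 and 44 a KO peak. How many had both is not given here, so the 4.05% cannot be set beside these counts of 0. Zinc finger genes with a Zfp symbol had 3 of 391 (Zfp292, Zfp800 and Zfp944), and the solute carriers had 1 of 376. The serpins had 1 of 62 (Serpine3) and the major urinary protein genes 1 of 24 (Mup-ps16).

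Liver metabolism genes were represented by single genes. Over all protein-coding genes 0.905% held a pair, and of those with peaks of both genotypes 4.05%. A single gene in lists this short therefore says little. In the list of valine, isoleucine and propionyl-CoA metabolism, 1 of 24 genes held a pair, among 9 with peaks of both genotypes. This was Hibch, which encodes a hydrolase of valine breakdown. Its site on chromosome 1 (52853083 to 52853143) held 8 WT and 6 KO fragments, with folds of 5.01 and 4.46 and summits 203 bp apart. In lipid synthesis and storage it was 1 of 32 genes, among 7 with peaks of both genotypes. This was Acaca, which encodes acetyl-CoA carboxylase of fatty acid synthesis. There, 6 WT and 5 KO fragments overlapped over 194 bp (chromosome 11, 84234048 to 84234241), among 14 WT and 14 KO peaks in the gene. In sterol and bile acid metabolism it was 1 of 36, among 9 with peaks of both genotypes. This was Abcb11, the gene of the bile salt export pump, with 4 fragments in both. Abcb4, the gene of the canalicular phospholipid transporter, was in none of the lists and was picked after its values were seen. It had 5 WT and 11 KO fragments with summits 13 bp apart, and a scaled ratio of 1.94 (95% interval 0.620 to 7.11).

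Hepatocyte identity genes had 1 pair among 34 genes, of which 8 had peaks of both genotypes. It was in Tdo2, which encodes the tryptophan-degrading dioxygenase of hepatocytes. Its site (chromosome 3, 81965493 to 81965532) had 7 WT and 8 KO fragments, at folds of 4.40 and 5.74. It passed the caller's q threshold in both genotypes, as did Hibch in both. The scaled KO to WT ratio at Tdo2 was 1.01 (95% interval 0.319 to 3.26). Glucose metabolism had 1 of 19, among 5 with peaks of both genotypes. It was the glycogen branching enzyme gene Gbe1, with 4 and 5 fragments. Fatty acid oxidation (30 genes), histone acylation (28), m6A machinery (19) and the markers of other liver cells (31) had 0. In these 4 lists 6, 10, 9 and 7 genes had peaks of both genotypes. None of the defining markers of hepatocytes (8 genes, 4 with a WT and 7 with a KO peak) or of 5 other liver cell types (3 or 4 genes each) held a pair. Over all protein-coding genes 0.905% held one, so a count of 0 among so few markers says little. Peaks do not measure expression, so the labelled tissue was not checked by them. Of the 52 long neuronal genes, all had WT and KO peaks and 4 held pairs (7.69%, 2.14 to 18.5), in Macrod2, Dlg2, Asic2 and Cntnap5a. Among the distinct genes of the other 10 lists with peaks of both genotypes it was 6 of 79 (7.59%, 2.84 to 15.8). Both shares are to be read beside the 4.05% of all such genes, which lies within both intervals.

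Macrod2, a gene of 1997664 bp for an ADP-ribose hydrolase, had 47 WT and 67 KO peaks and 2 pairs, with 6 and 4 fragments at the first site and 5 and 4 at the second. Summits were 5 and 33 bp apart. Dlg2, a synaptic scaffold gene of 1973059 bp, had 49 and 50 peaks and 1 pair with 6 fragments in both, which overlapped over 6 bp. In all, 9 genes held 2 or more pairs, among them Spata1, described with the dense stretches. Akap13, a gene for an anchoring protein of protein kinase A, had 7 WT and 6 KO fragments at one site and 7 in both at the next. Usp32, a deubiquitylating enzyme gene, had 5 and 6 fragments at one site and 6 in both at the other. Slc44a1, a choline transporter gene, had 4 and 6 at its first site and 4 in both at its second. Lin7a, Nek1 and Nedd4l also had 2 pairs each, with 4 to 6 fragments. The 2 pairs of Mrtfa, a coactivator of serum response factor, shared a WT peak of 12 fragments, with 2 KO peaks of 5 under it.

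The share of weak sites with another weak site nearby was above the share of other peaks with one, at distances up to 1 Mb, with no test of the difference. Within 1 Mb, 164 of the 406 pairs had another pair (40.4%, 35.6 to 45.3). With pairs that share a peak merged, this was 39.3% of 402 sites (34.5 to 44.3). Of the peaks outside the pairs, 30% of WT and 32.2% of KO peaks had such a site within 1 Mb. At 100 kb the shares were 8.21% of sites (5.72 to 11.3), 4.01% of WT and 5.11% of KO peaks. Within 10 kb they were 2.74% of sites (1.37 to 4.84, 11 sites), 0.508% and 0.788%. At 5 Mb they met, at 80.1%, 78.6% and 80.3%. With the 344 low-background pairs alone, the share with another such pair within 10 kb was 2.33% (1.01 to 4.53), against 0.426% of WT and 0.523% of KO peaks with one of these pairs. At 1 Mb it was 33.4% (28.5 to 38.7), against 27% of WT peaks, below that interval, and 28.8% of KO peaks, inside it. The number of other peaks around the pairs was higher in the mean, and in the median for WT peaks only. A window of 100 kb centred on a pair held a mean of 2.90 other WT and 3.17 other KO peaks, against 2.48 and 2.01 around WT peaks and 2.61 and 2.58 around KO peaks. The medians were 3 WT and 2 KO peaks around the pairs and 2 of each around peaks of either list.

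**Figure D5:**
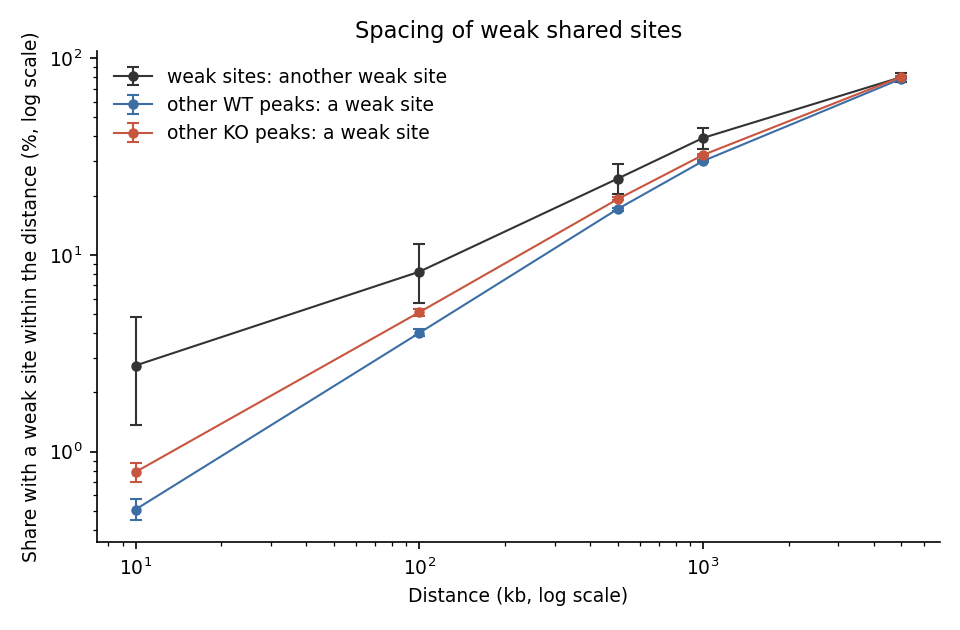
Percentage of weak sites with another weak site (black) and of other WT (blue) and KO (red) peaks with a weak site within the distance on the horizontal axis, both axes logarithmic, with exact 95% intervals. The black line is above the others at 10 kb (2.74% against 0.508% and 0.788%) and meets them at 5000 kb.

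By chromosome the shares of pairs were set beside the shares of peaks, with no interval and no test. Whether the pairs departed from peak number on any chromosome is therefore not settled. Chromosomes 1 and 3 held the most pairs, 46 each, 11.33% of the set. Against this stood 9.18% and 7.77% of WT peaks and 9.95% and 8.64% of KO peaks. Chromosome 1 also held the most peaks in both lists. Chromosome 9, with the fewest pairs for its number of WT or KO peaks, held 10 pairs, 2.46%, against 5.15% and 4.8%. These chromosomes are named as extremes. The most crowded stretch was on chromosome 1 (84530576 to 85335896), with 5 pairs at 4 sites. It also held 18 WT and 99 KO peaks. There, 3 pairs beside A530032D15Rik and 1 inside Gm7592 had 13 to 17 WT and 7 or 8 KO fragments, while the pair in Dner, a Notch ligand gene, had 4 and 5. The WT background at those 4 pairs reached 4.40 fragments and the KO background 0.895.

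Spata1, a gene named for its link to spermatogenesis, held 4 pairs within 6527 bp on chromosome 3 (146471244 to 146477770), from 4 WT and 3 KO peaks. Fragments were 4 and 4, 9 and 10, 13 and 10, and 14 and 5 in WT and KO along the gene. The second and the third pair shared a KO peak, and the WT background reached 2.90. A stretch of 501210 bp at the prolactin family genes Prl2c3 and Prl2c5 on chromosome 13 (12735687 to 13236896) had 4 pairs with 4 to 11 WT and 4 to 8 KO fragments, all at low background. On the stretch of chromosome 3 that begins near Il21 (37211426 to 38090167) 4 pairs had 4 to 7 fragments in both lists. Near Zfp982 on chromosome 4 (147424207 to 147529907), in a stretch of 105701 bp, 3 pairs had 4 to 12 WT and 5 to 8 KO fragments, with a WT background of up to 2.90. Copies of a gene family with near-identical sequence can share or lose reads, so values at the Prl2c and Zfp982 sites are uncertain. The same may hold for the chromosome 1 stretch at A530032D15Rik and Gm7592. It held 18 WT and 99 KO peaks, with a WT background of up to 4.40. Whether sequence copies affected any of these sites was not tested.

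The highest pairs, ranked by the lower of their 2 counts, lay inside genes and between them. The site in Mov10, an RNA helicase gene that restrains retroelements, ranked first (chromosome 3, 104798647 to 104798943), with 10 WT and 22 KO fragments. Folds were 6.25 and 6.93, with a KO background of 2.32. Its scaled ratio was 1.94 (95% interval 0.880 to 4.58). Styk1, a kinase-like receptor gene, had 9 in both, and the low-background site on chromosome 8 (41878788 to 41878865), 461688 bp from Frg1, had 9 and 8 with summits 15 bp apart. Between genes were the sites nearest Plxna4, a semaphorin receptor gene (10 and 12), Fzd9, a Wnt receptor gene (18 and 10), Agap1 (9 and 12) and Gm40469 (14 and 10). Of these 10 pairs, 2 of which were in Spata1, 8 had a raised background in WT, in KO or in both.

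Just inside the threshold of 11 lay 5 pairs with 10 or more in both, namely those of Mov10, Plxna4, Fzd9, Gm40469 and the third in Spata1. Just outside it lay 2 pairs with 11 or 12 in both. The pair 48572 bp from Jak1, a cytokine receptor kinase gene, had 11 WT and 12 KO fragments at folds of 6.82 and 8.29. The pair in Dnah14, a dynein gene, had 12 and 11 at folds of 3.23 and 6.77.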

How the data were processed

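Cutadapt 1.9.3, Bowtie2 2.2.4 and the build mm10 are named in the submitters' processing notes. The peaks are narrow paired-end calls of MACS version 2.1.1.20160309 at a p cutoff of 0.001, per the file headers, each IP library against its own input and not on pooled samples, with a maximum of 2 duplicate fragments. The deposited pileup is a signal, the IP fragments over the summit. The fold deposited by the authors is the ratio of pileup to local background, with 1 added to both, and the background was computed back from it. The deposited −log10 p and −log10 q are per peak. The headers said q would not be calculated, but the column held values. Other deposited values are positions in bp. These values are the authors' own.

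Pairs, distances and shares were computed in Python 3.11.15 with pandas 2.3.3 and scipy 1.17.1, and the pair search was tested on simulated data. Genes were placed with RefSeq's GRCm38.p6 gene table, which is on mm10 coordinates, and start sites with the promoter table; neither gives exons. Distances were from the midpoint of the overlap. Of the 357 distinct symbols in 11 gene lists, 355 matched the table. No p-value was computed, since each group held 1 library. The members and lists were chosen with earlier results of these data known. Named were the 10 pairs with the highest lower count, pairs at gene ends, genes with 2 or more pairs, list members, the 10 closest summit pairs, the 5 densest runs and pairs next to the threshold. One of the pairs with the highest lower count is not reported here.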

Additional observations from a re-analysis of the deposited data

How the results depend on the processing

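The 406 pairs became 267 with an overlap of at least 50% of the shorter peak, 148 with each summit inside the other peak, 145 with a −log10 p of 4 or more in both and 30 with a −log10 q of 1.3 or more in both. Under the other settings the number stayed between 344 and 402. The share within 2 kb of a gene end (3.69%) was 1.97% with a window of 1 kb and 13.3% with 5 kb. The share of interior pairs stayed between 40% and 48.3%. The share with another pair within 1 Mb (40.4%) was 30.7% with the 50% overlap, 16.7% with the q threshold, 33.4% at low background, 9.61% at 100 kb and 80.5% at 5 Mb. Fewer pairs lie farther apart by construction. The median summit distance (63 bp) was 50 bp with the 50% overlap, 83 bp with the q threshold and 69.5 bp with 7 or more fragments in both, the last chosen after seeing the data; the cause of the rise under the q threshold was not tested. Start sites of any gene, also chosen after seeing the data, gave 3.3% within 2 kb, against 4.08% of WT and 3.14% of KO peaks. No paired analysis was possible because each genotype had 1 IP library and the columns carry no replicate numbers, and for the same reason no library could be left out. Depth limits single sites, since 4 to 6 fragments cannot separate WT from KO.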

Other observations

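Outside the set, 17 overlapping pairs lay on the X and Y chromosomes, 5 on X and 12 on Y. On X, the site nearest Mageb18 had 8 WT and 5 KO fragments, and a site 119108 bp from 4932411N23Rik had 7 and 4. On Y, 4 pairs had 5 to 8 WT and 4 to 9 KO fragments, nearest Gm21292, Gm20812, Gm20877 and Gm21287. These were picked after their values were seen, as the pairs with fewer than 11 fragments in at least 1 genotype. A single miRNA hairpin, Mir5133 on chromosome 9, lay within 5 kb of a pair of the set, 2631 bp from a site with 7 WT and 4 KO fragments.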
